A study of Mus musculus with 23 samples.

Results

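The genes described here are 9 mouse genes of fibrinolysis and coagulation: Plaur, Plau, Serpinb2, F3, F7, F10, F13a1, Thbs1 and Procr. They were chosen by symbol, with earlier results of these data known, and each symbol matched 1 Ensembl gene row. They are 9 of 47729 rows in the count table. RNA was sequenced from macrophages and monocytes of wild-type C57BL/6J mice whose subcutaneous tissue held an implanted poly(ethylene glycol) (PEG) hydrogel, a crosslinked polymer used as a biomaterial, or no implant. Both cell types were sorted as Cx3cr1-positive, with low Ly6C for the macrophages and high Ly6C for the monocytes, as the design note says. The 8 groups were control, day 2, day 14 and day 28 after implantation of each cell type, with 3 biological replicates (letters A, B and C) except for 2 in control macrophages. The controls carry the treatment label none, and all tissue and explants were digested with Liberase TM, a collagenase blend. The labels do not say whether animals were pooled in a library or whether controls had a sham operation.

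Fibrin is the protein mesh of a blood clot, and fibrinolysis is its removal. Urokinase (Plau) binds its receptor (Plaur) on the cell surface and turns plasminogen into plasmin, the protease that cuts fibrin, while Serpinb2 (plasminogen activator inhibitor type 2) inhibits urokinase. Clotting begins when tissue factor (F3) binds factor VII (F7), and the pair activates factor X (F10), which in turn produces thrombin. The A chain of factor XIII (F13a1) crosslinks fibrin, thrombospondin 1 (Thbs1) is a matrix glycoprotein that binds cells and fibrin, and the endothelial protein C receptor (Procr) takes part in the anticoagulant protein C pathway. Plasma proteins, fibrinogen among them, are known to coat implanted materials soon after placement. Factors VII and X of plasma come mainly from the liver, and macrophages are known to make some coagulation factors too.

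The rows are ENSMUSG00000046223 (Plaur), ENSMUSG00000021822 (Plau), ENSMUSG00000062345 (Serpinb2), ENSMUSG00000028128 (F3), ENSMUSG00000031443 (F7), ENSMUSG00000031444 (F10), ENSMUSG00000039109 (F13a1), ENSMUSG00000040152 (Thbs1) and ENSMUSG00000027611 (Procr). Plaur lies at chr7:24462484-24475968, Plau at chr14:20836660-20843385, Serpinb2 at chr1:107511423-107535478, F3 at chr3:121723537-121735048, Thbs1 at chr2:118111876-118127133 and Procr at chr2:155751117-155755471, all on the plus strand of GRCm38. F7 (chr8:13026034-13035809) and F10 (chr8:13037308-13056676) are neighbours on the plus strand of chromosome 8. F13a1 (chr13:36867178-37050244) is on the minus strand. RefSeq promoter windows (GRCm38.p6, 250 bases before to 50 after a start) were at hand for 7 of the 9 genes, in 9 windows; Plau and Thbs1 had none. The AP-1 motif TGANTCA, searched on both strands, was in 5 of the 9 windows, those of Plaur, F3, Procr and both of Serpinb2. The 2 Serpinb2 windows overlap and hold the same letters. The motif was in 7.81% of all 32851 windows of that length. The bases before the start of these 4 genes follow, plus strand and 5′ to 3′, since they hold the motif most shared among the genes: 160 bases before the RefSeq start, cut to 60 for Procr, whose annotated start lies farther upstream.
Plaur (chr7:24462323-24462482): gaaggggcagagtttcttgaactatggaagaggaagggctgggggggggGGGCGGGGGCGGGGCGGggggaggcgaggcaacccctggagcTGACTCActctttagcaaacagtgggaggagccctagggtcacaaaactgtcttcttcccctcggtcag
Serpinb2 (chr1:107511263-107511422): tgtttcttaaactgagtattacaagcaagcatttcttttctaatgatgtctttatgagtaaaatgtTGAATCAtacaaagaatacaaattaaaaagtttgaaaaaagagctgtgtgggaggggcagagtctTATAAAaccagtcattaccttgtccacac
F3 (chr3:121723377-121723536): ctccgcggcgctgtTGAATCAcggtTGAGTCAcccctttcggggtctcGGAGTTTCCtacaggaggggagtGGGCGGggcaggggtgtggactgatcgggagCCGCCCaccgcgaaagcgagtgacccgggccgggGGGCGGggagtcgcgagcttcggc
Procr (chr2:155751057-155751116): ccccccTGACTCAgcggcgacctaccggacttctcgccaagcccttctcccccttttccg
Capitals mark every match to a searched motif. The AP-1 matches begin at -69 in Plaur, -94 in Serpinb2, -146 and -135 in F3 and -154 in Procr, counted from the RefSeq start site. F3 also holds an NF-kB match (GGANTTTCC) at -112, a motif found in 2 of the 9 windows and 1.25% of all, the other being a second window of F13a1. The other capitals are SP1 (GGGCGG, 35.7% of all windows) in Plaur and F3, Egr1 (GCGNGGGCG, 5.55%) overlapping SP1 in Plaur, and the TATA box (TATAAA, 13.6%) in Serpinb2. The hypoxia element ACGTG (19.6% of all) matched F10 alone, and the cyclic AMP element TGACGTCA (1.79%) matched none of the 9. A match is a run of letters and says nothing of binding.

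Library totals ran from 9303153 to 32994092 counts, with the lowest totals in replicate A of control macrophages and replicate C of day 2 macrophages. Levels below are counts per 1000000 (CPM) in the genes tested, scaled by TMM (trimmed mean of M values), and 3 counts correspond to 0.0654 to 0.362 CPM. TMM factors were 1.24 to 1.41 in the 5 control libraries and 0.727 to 1.04 in the 18 implant libraries. The mitochondrial share of counts in macrophages was 0.746 and 1.25% in controls, 1.86 to 4.35% at day 2, 0.985 to 1.76% at day 14 and 2.14 to 2.71% at day 28. In monocytes that share was 0.511 to 0.709%, 1.18 to 2.88%, 1.28 to 1.53% and 0.609 to 0.997%. Its part in the results was not tested. The monocyte marker Ly6c2 was at 836 to 3586 CPM in monocytes and 5.49 to 236 CPM in macrophages, which follows the labels. Of the 3 sort gate genes Cx3cr1, Ly6c1 and Ly6c2, all 3 were called lower in macrophages in controls and at day 2. Cx3cr1 was thus called lower there too, although both cell types were sorted as positive for it. At days 14 and 28, 2 of the 3 were called lower. Summed CPM of 9 macrophage markers was 18408 to 21416 in control macrophages and 10369 to 16490.2 in implant macrophages, against 2983 to 3802 in control monocytes and 5890 to 8803 in implant monocytes. Of these 9, 4 were called lower and 1 higher in day 2 macrophages, and 8 were called higher in day 2 monocytes. Of 7 monocyte markers, 4 were called higher in day 2 macrophages. Summed CPM of 10 neutrophil markers was 69.5 to 102 in control macrophages and 3156 to 6742 in day 2 macrophages, with Ly6g going from 0 to between 9.30 and 20.6 CPM. In control monocytes this sum was already 2651 to 4083, and it was 2190 to 5150 at day 2, 314 to 849 at day 14 and 354 to 590 at day 28. Among these 10 markers, monocytes had 3 called higher and 3 lower at day 2. At day 14 it was 1 higher and 6 lower, and at day 28 it was 0 and 6. Summed CPM of 10 fibroblast markers was 2.23 to 8.45 in control monocytes, 13.4 to 141 at day 2, 655 to 1209 at day 14 and 293 to 693 at day 28, and it was 204 to 262 in control macrophages against 6.91 to 115 in implant macrophages. Summed CPM of 12 early-response genes that tissue digestion can also raise was 5323 to 5802 in control macrophages and 10480.0 to 18837 in implant macrophages, and 7769 to 10255 in control monocytes and 9010 to 25220 in implant monocytes. Of these 12, 5 were called higher in macrophages at each day, with 2 lower at day 28. In monocytes 5, 5 and 6 were called higher and 3, 5 and 0 lower at days 2, 14 and 28. Summed CPM of 10 endothelial markers was 3.88 to 14.1 in control monocytes, 26.0 to 50.8 at day 14 and 40.7 to 45.8 at day 28, with 3 of 10 called higher at each of these days, and the 4 hepatocyte markers were at 0 or at most 0.208 CPM. The part of other cells and of early-response genes in the results on the 9 genes was not tested. In sorted bulk samples, fewer cells making a transcript and less of it per cell cannot be told apart.

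**Figure D1:**
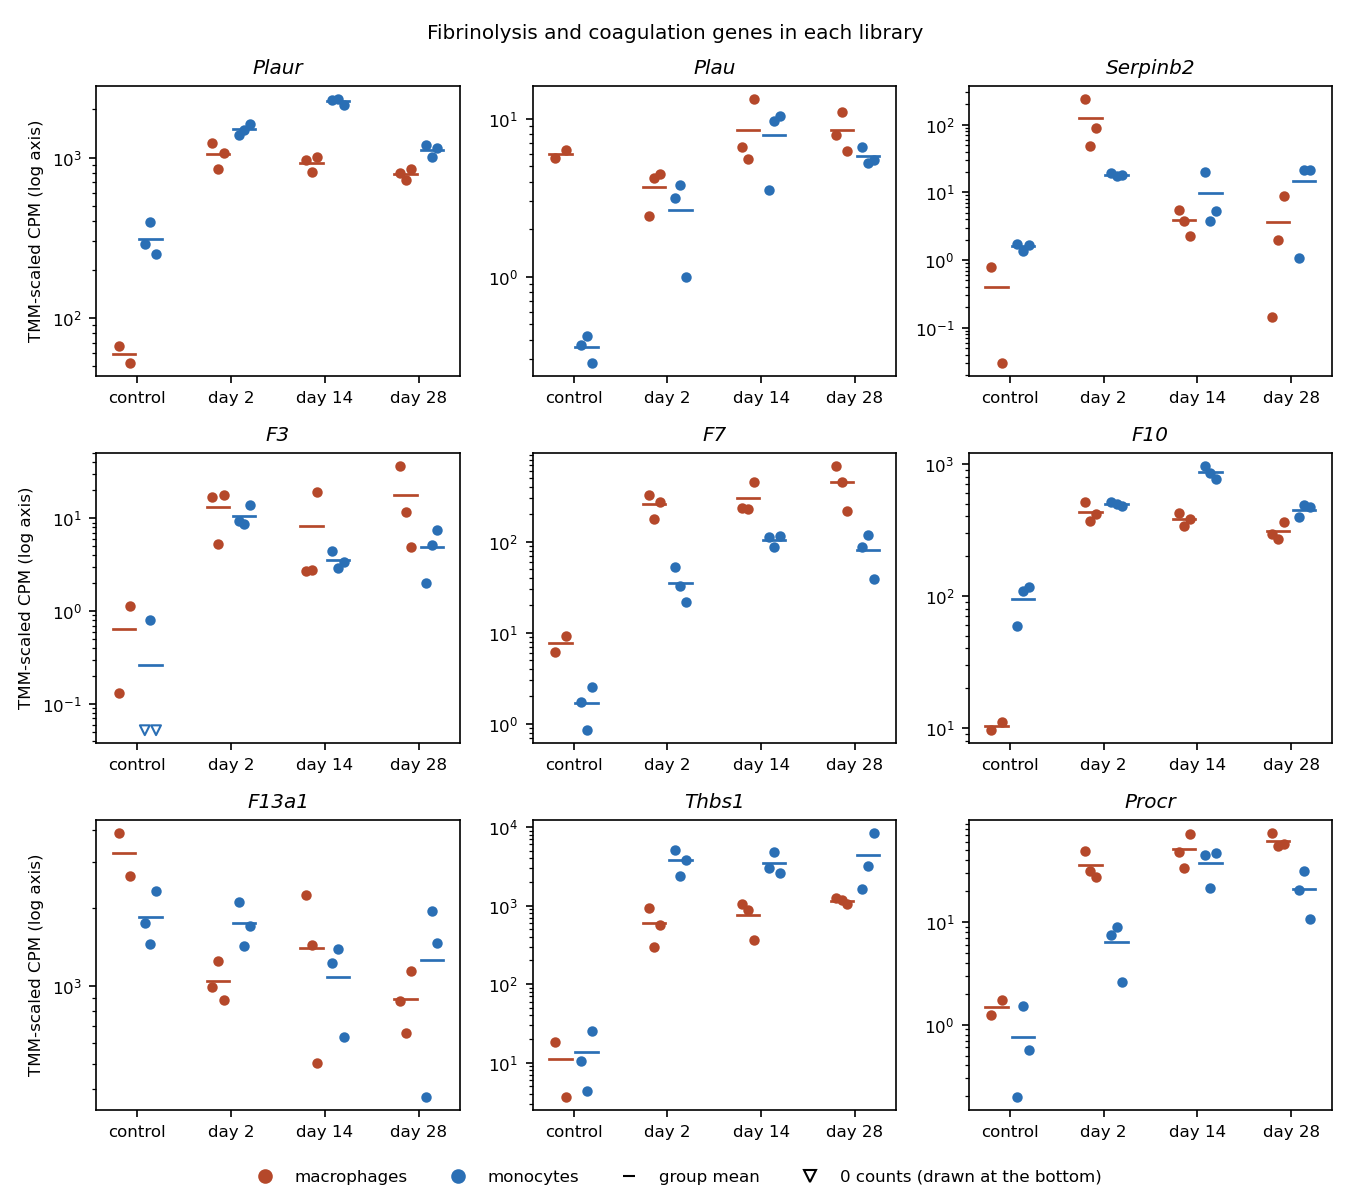
TMM-scaled CPM (log axis) of each of the 9 genes in each of the 23 libraries, by time and cell type. Dots are libraries, short lines are group means and open triangles mark libraries with 0 counts. Control libraries lie below all implant libraries of the same cell type for Plaur, F7, F10, Thbs1 and Procr, and above or among them for F13a1.

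With 16260 genes tested, all 9 genes passed the filter on low counts. A gene is called here when its edgeR quasi-likelihood F test has a Benjamini-Hochberg adjusted p under 0.05 over all genes tested. In macrophages, 8 of the 9 were called at day 2 against control (7 higher, F13a1 lower), where 17.2% of all genes were called. At day 14, 5 of the 9 were called, all higher, against 8.21% of all genes. At day 28, 7 of the 9 were called (6 higher, F13a1 lower), against 10.6%. In monocytes, 8 of the 9 were called at day 2, all higher, against 27.0% of all genes, 7 at day 14, all higher, against 37.7%, and 8 at day 28, all higher, against 18.2%. The 5 genes called higher in both cell types at every day were Plaur, F7, F10, Thbs1 and Procr. The 3 days of a cell type share the same control libraries, so their calls are not independent. Because the 9 genes were chosen with earlier results of these data known, these shares do not test whether the set stands out.

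**Figure D2:**
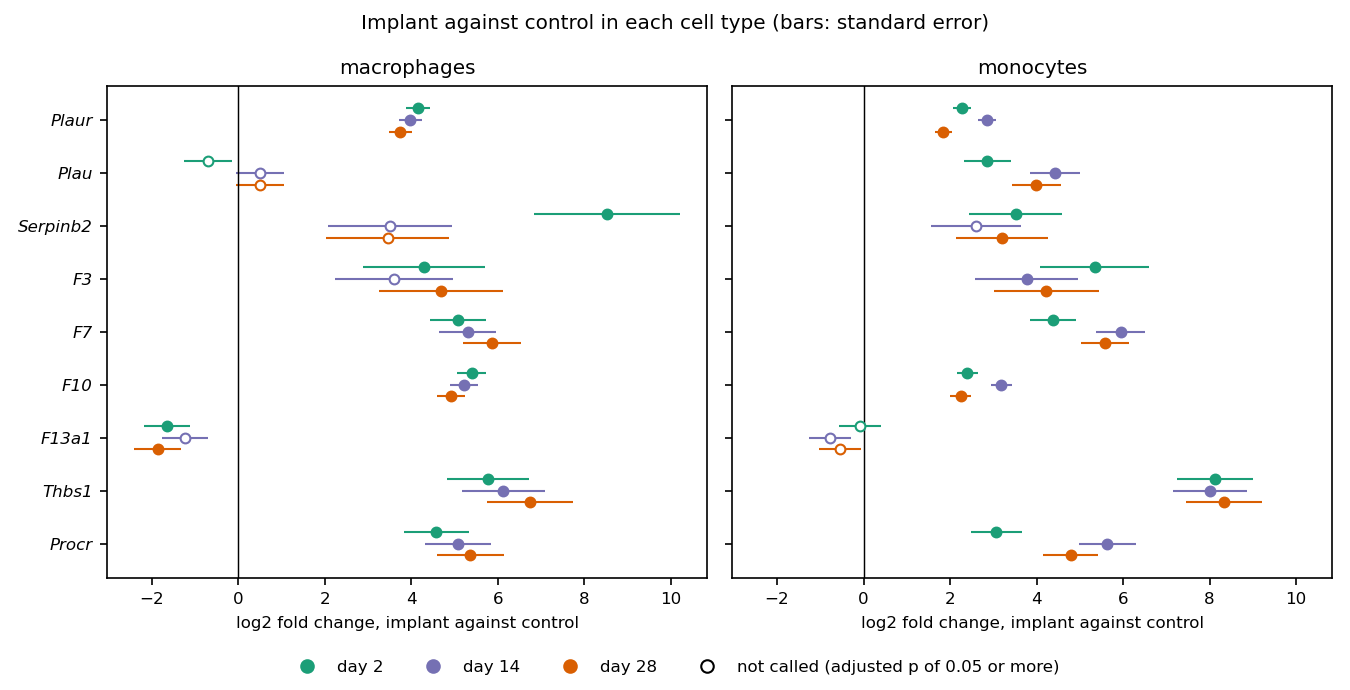
Log2 fold change of each gene at day 2, 14 and 28 against the control of the same cell type, with its standard error, macrophages on the left and monocytes on the right. Filled points were called and open points were not; Plau was called in monocytes at each day and in macrophages at none, and F13a1 lies left of 0 at each day in both cell types, as does Plau in day 2 macrophages.

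Plaur, the urokinase receptor, rose in both cell types at all 3 days. Its level in macrophages was 66.4 and 52.0 CPM in controls, 1236, 851 and 1061 at day 2, 963, 818 and 1002 at day 14 and 796, 726 and 850.3 at day 28. In monocytes it was 287, 395 and 248 CPM in controls, 1381, 1495 and 1623 at day 2, 2289, 2314 and 2125 at day 14 and 1193, 1013 and 1146 at day 28. Every implant library of either cell type stood above every control library, and day 14 monocytes stood above all other groups. The log2 fold change in macrophages was 4.15 (SE 0.27, edgeR adjusted p = 8.67e-09) at day 2, a 17.7-fold rise, 3.97 (SE 0.27, edgeR adjusted p = 1.66e-08) at day 14 and 3.74 (SE 0.27, edgeR adjusted p = 2.69e-08) at day 28. In monocytes it was 2.27 (SE 0.21, edgeR adjusted p = 1.34e-07), 2.85 (SE 0.22, edgeR adjusted p = 5.0e-09) and 1.85 (SE 0.21, edgeR adjusted p = 1.64e-06) at the same days. Ordered by mean, day 14, day 2 and day 28 monocytes came first, and the ranges of day 28 monocytes and of the 3 implant macrophage groups overlapped from one to the next.

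Plau, urokinase itself, stayed low throughout, at most 13.3 CPM in any library. In macrophages it was at 5.68 and 6.32 CPM in controls, 2.41, 4.20 and 4.47 at day 2, 6.65, 5.59 and 13.3 at day 14 and 7.95, 11.1 and 6.26 at day 28. In monocytes the control libraries held 0.371, 0.425 and 0.284 CPM (17, 16 and 12 reads), followed by 3.15, 3.84 and 1.0 at day 2, 3.53, 9.65 and 10.4 at day 14 and 6.63, 5.22 and 5.51 at day 28. Control monocytes were thus below every other library, while control macrophages lay above all day 2 macrophages and within or near the range of the later ones. No macrophage comparison was called: the log2 fold changes were -0.71 (SE 0.55, edgeR adjusted p = 0.392) at day 2, 0.50 (SE 0.56, edgeR adjusted p = 0.629) at day 14 and 0.49 (SE 0.56, edgeR adjusted p = 0.646) at day 28. Monocyte Plau rose at each day, with log2 fold changes of 2.87 (SE 0.55, edgeR adjusted p = 7.27e-04), 4.44 (SE 0.58, edgeR adjusted p = 8.06e-06) and 3.99 (SE 0.57, edgeR adjusted p = 3.24e-05). The summed fibroblast markers of the monocyte libraries were also higher at these days than in controls, as given above.

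Serpinb2, the urokinase inhibitor, had its highest levels in day 2 macrophages. Its libraries there held 238, 48.5 and 89.6 CPM, against 0.784 and 0.0300 in control macrophages (12 and 1 reads), 5.52, 3.76 and 2.24 at day 14 and 0.142, 2.01 and 8.91 at day 28. The monocyte libraries held 1.74, 1.35 and 1.68 CPM in controls, 19.4, 17.7 and 17.8 at day 2, 20.1, 3.83 and 5.34 at day 14 and 1.07, 21.3 and 21.6 at day 28. The 3 day 2 macrophage libraries were above all 20 others, and replicate A of both day 28 groups was within or below the controls' range. In macrophages Serpinb2 rose at day 2, with a log2 fold change of 8.52 (SE 1.68, edgeR adjusted p = 0.00154), which was 11.72 without control macrophage A, 7.28 without control macrophage B and 7.55 without day 2 macrophage A. It was not called at day 14 (3.5, adjusted p = 0.14 by edgeR) or day 28 (3.45, adjusted p = 0.135). The difference of day 14 from day 2 in macrophages was -5.02 (SE 1.14, edgeR adjusted p = 0.0502) on the log2 scale, just short of the threshold. It was under the threshold when any of 6 libraries of other groups was left out (control macrophage A or B, day 28 macrophage A or C, day 14 monocyte A, day 28 monocyte A), edgeR adjusted p 0.0186 to 0.0464, and with 5 of the 7 other alternatives. The neutrophil marker sum of these day 2 macrophages was 3156 to 6742 CPM, as given above, against 69.5 to 102 in their controls. In monocytes the log2 fold changes were 3.52 (SE 1.07, edgeR adjusted p = 0.0195) at day 2, 2.60 (SE 1.04, edgeR adjusted p = 0.0532) at day 14 and 3.20 (SE 1.06, edgeR adjusted p = 0.0396) at day 28. The day 2 call was lost without control monocyte A, B or C (edgeR adjusted p 0.0646, 0.0599 and 0.0682). The day 28 call was lost without any control monocyte library (0.106, 0.0978 and 0.110 for A, B and C), without day 28 monocyte B or C (0.0960 and 0.0986) and without day 2 macrophage C (0.0523). At day 14 the call appeared without day 14 monocyte B (0.0479), day 28 macrophage A or C (0.0288 and 0.0369) or day 28 monocyte A (0.0309). Serpinb2 shares 291 exonic bases with Serpinb10 on the same strand, and 9% of its 75-base words occur in that gene, whose counts summed to 2192 over all libraries against 10062 for Serpinb2.

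F3, tissue factor, was scarce in every group and uneven between libraries. In macrophages it was at 0.131 and 1.14 CPM in controls (2 and 38 reads), 16.9, 5.27 and 18.0 at day 2, 2.68, 2.79 and 19.2 at day 14 and 36.4, 11.5 and 4.89 at day 28. In monocytes, control A and C held 0 reads and control B held 30, or 0.796 CPM, and the later groups held 9.28, 8.62 and 14.0 CPM at day 2, 4.50, 2.91 and 3.37 at day 14 and 2.02, 5.12 and 7.57 at day 28. All 18 implant libraries exceeded all 5 control libraries. In macrophages F3 rose at day 2, 4.28 (SE 1.41, edgeR adjusted p = 0.0413) on the log2 scale, and at day 28, 4.68 (SE 1.44, edgeR adjusted p = 0.0407), and was not called at day 14, 3.59 (SE 1.37, edgeR adjusted p = 0.113). The day 2 value was 3.46 without control macrophage A and 6.58 without B, and its call was lost without either (adjusted p 0.282 and 0.0774) and without day 2 macrophage A or C (0.0900 and 0.0912) or day 2 monocyte B (0.0507), by edgeR in each case. The day 28 call was lost without control macrophage A or B (0.254 and 0.102), day 28 macrophage A or B (0.130 and 0.0525), day 2 macrophage A or C (0.0525 and 0.0505) or day 2 monocyte B (0.0511), its value being 3.96 and 7.08 without control macrophage A and B and 3.59 without day 28 macrophage A. Conversely, leaving out control monocyte B gave a call at day 14, edgeR adjusted p = 0.0480. In monocytes F3 rose at day 2, 5.34 (SE 1.26, edgeR adjusted p = 0.00392), at day 14, 3.77 (SE 1.19, edgeR adjusted p = 0.0176), and at day 28, 4.23 (SE 1.21, edgeR adjusted p = 0.0185). Since 1 of the 3 control libraries holds all control reads, these fold changes move with it: without control B the values were 10.90, 9.35 and 9.84 at days 2, 14 and 28, and the lowest day 2 value with any other library left out was 4.72. Without control monocyte A or C the day 14 value was 3.09 or 3.10. The calls were lost without control monocyte A or C at day 14 (adjusted p 0.0669 and 0.0679 by edgeR) and at day 28 (0.0668 and 0.0695), and at day 28 also without day 28 monocyte C (0.0504). Both were lost too when only the groups compared were fitted (edgeR adjusted p 0.0718 and 0.0854).

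F7, factor VII, binds tissue factor and was higher in macrophages than in monocytes at each time. In macrophages it was at 6.20 and 9.26 CPM in controls, 329, 177 and 275 at day 2, 233, 230.2 and 453 at day 14 and 676, 451 and 219 at day 28. Monocyte levels were 1.72, 0.850 and 2.53 CPM in controls, 52.5, 32.6 and 21.8 at day 2, 113, 87.9 and 116 at day 14 and 88.0, 118 and 39.1 at day 28. No implant library overlapped the controls of its cell type, and the lowest implant macrophage library (177 CPM) was above the highest monocyte library (118 CPM). The log2 fold change in macrophages was 5.07 (SE 0.65, edgeR adjusted p = 1.97e-05) at day 2, 5.30 (SE 0.65, edgeR adjusted p = 1.87e-05) at day 14 and 5.85 (SE 0.67, edgeR adjusted p = 8.30e-06) at day 28, the last a 57.8-fold rise. The monocyte value was 4.38 (SE 0.53, edgeR adjusted p = 4.84e-06), 5.95 (SE 0.57, edgeR adjusted p = 1.41e-07) and 5.58 (SE 0.56, edgeR adjusted p = 4.04e-07). The hepatocyte markers Alb, Apoa1, Ttr and Serpina1a were at 0 in every macrophage library.

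F10, factor X, is the target of the F3 and F7 pair. It was at 9.60 and 11 CPM in control macrophages, 514, 368 and 414 at day 2, 428, 339 and 380.3 at day 14 and 292, 269 and 366 at day 28. Monocytes held 59.0, 108 and 118 CPM in controls, 518, 499.6 and 481 at day 2, 961, 856 and 771 at day 14 and 399, 486 and 468 at day 28. All implant libraries exceeded all control libraries, and the lowest implant value, 269 CPM, was in day 28 macrophages. In macrophages F10 rose by 5.39 (SE 0.33, edgeR adjusted p = 5.0e-09) on the log2 scale at day 2, a 41.9-fold change with the smallest p of any gene tested there, by 5.21 (SE 0.33, edgeR adjusted p = 7.94e-09) at day 14 and by 4.91 (SE 0.32, edgeR adjusted p = 1.86e-08) at day 28. In monocytes, which began higher, it rose by 2.4 (SE 0.24, edgeR adjusted p = 3.95e-07), 3.18 (SE 0.25, edgeR adjusted p = 8.03e-09) and 2.25 (SE 0.24, edgeR adjusted p = 7.88e-07). As with Plaur, day 14 monocytes held the highest values of all groups and control macrophages the lowest.

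F13a1, the fibrin crosslinking subunit of factor XIII, went the other way. It was at 3877 and 2649 CPM in control macrophages, 989, 1247 and 878 at day 2, 2244, 1433 and 503 at day 14 and 874, 658 and 1143 at day 28. The monocytes had 1751, 1443 and 2327 CPM in controls, 2099, 1417 and 1703 at day 2, 1221, 1391 and 633 at day 14 and 371, 1939.7 and 1461 at day 28. Both control macrophage libraries were above all 9 implant macrophage libraries, whereas the monocyte groups at day 2 and day 28 overlapped their controls. In macrophages F13a1 fell at day 2, -1.65 (SE 0.53, edgeR adjusted p = 0.0373), or 3.14-fold, and at day 28, -1.87 (SE 0.53, edgeR adjusted p = 0.0277), and was not called at day 14, -1.23 (SE 0.53, edgeR adjusted p = 0.166). The median of all genes tested at day 2 was -0.16 on this scale. The summed macrophage markers were also lower there, 10369 to 13232 CPM at day 2 against 18408 to 21416 in controls, and their part in this result was not tested. The day 2 call was lost without control macrophage A or B (edgeR adjusted p 0.237 and 0.0641) or day 2 macrophage A, B or C (0.0913, 0.0574 and 0.10). The day 28 call was lost without control macrophage A or B (0.204 and 0.0787) or day 28 macrophage A or B (0.0776 and 0.102). In monocytes no day was called, with log2 fold changes of -0.08 (SE 0.48, edgeR adjusted p = 0.933), -0.77 (SE 0.48, edgeR adjusted p = 0.219) and -0.55 (SE 0.48, edgeR adjusted p = 0.461); the day 2 value had no settled sign and was 0.074 without control monocyte C.

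Thbs1, a matrix glycoprotein of platelets and many other cells, rose in both cell types at all 3 days and spanned 3.63 to 8345 CPM over the libraries. In macrophages it was at 18.4 and 3.63 CPM in controls, 926, 293 and 568 at day 2, 1048, 869 and 359 at day 14 and 1236, 1188 and 1056 at day 28. Among monocytes the levels were 10.6, 4.35 and 25.6 CPM in controls, 5115, 2388 and 3842 at day 2, 3037, 4779 and 2634 at day 14 and 1606, 3159.8 and 8345 at day 28. Every implant monocyte library was above every implant macrophage library, and the controls of both cell types overlapped. The log2 fold change in macrophages was 5.77 (SE 0.94, edgeR adjusted p = 2.85e-04), 6.12 (SE 0.96, edgeR adjusted p = 2.66e-04) and 6.74 (SE 0.99, edgeR adjusted p = 1.18e-04) at days 2, 14 and 28. These became 7.28, 7.71 and 8.33 without control macrophage A and 4.99, 5.42 and 6.04 without control macrophage B. Monocyte changes were 8.13 (SE 0.87, edgeR adjusted p = 1.14e-06), 8.01 (SE 0.87, edgeR adjusted p = 7.43e-07) and 8.34 (SE 0.88, edgeR adjusted p = 7.71e-07), rises of 279.7-fold, 258-fold and 323-fold. Without control monocyte C they became 8.93, 8.78 and 9.21, and without day 28 monocyte C the last was 7.46. The sum of 11 platelet markers was 0.805 to 1.92 CPM in control monocytes and 15.9 to 75.8 CPM in implant monocytes, the latter nearly all Ppbp, and Gp1bb was at 0 in every library. In macrophages that sum was 3.79 to 6.20 CPM in controls and 240.1 to 641 CPM at day 2, again nearly all Ppbp. The part of platelets in the Thbs1 result was not tested. The antisense gene Gm29233 overlaps 208 exonic bases of Thbs1 and held 70 counts in all libraries together, against 818078 for Thbs1.

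Procr, the protein C receptor, was low in controls, at 1.74 CPM or less. In macrophages it was at 1.24 and 1.74 CPM in controls, 49.2, 31.7 and 27.3 at day 2, 48.0, 33.7 and 71.6 at day 14 and 73.4, 54.6 and 58.1 at day 28. In monocytes it was at 0.196, 1.51 and 0.568 CPM in controls (9, 57 and 24 reads), 7.47, 9.01 and 2.63 at day 2, 44.6, 21.2 and 46.8 at day 14 and 20.5, 31.3 and 10.7 at day 28. Day 2 monocytes lay between the controls and all other implant groups, with no overlap on either side. Macrophage Procr rose by 4.58 (SE 0.74, edgeR adjusted p = 2.79e-04) on the log2 scale at day 2, 5.08 (SE 0.76, edgeR adjusted p = 1.70e-04) at day 14 and 5.36 (SE 0.77, edgeR adjusted p = 9.89e-05) at day 28. Monocyte Procr rose by 3.07 (SE 0.60, edgeR adjusted p = 8.20e-04), 5.64 (SE 0.65, edgeR adjusted p = 1.94e-06) and 4.79 (SE 0.63, edgeR adjusted p = 1.36e-05). Without control monocyte B these became 3.97, 6.57 and 5.75. Procr is known best from endothelial cells, whose 10 markers summed to 3.88 to 14.1 CPM in control monocytes and 26.0 to 50.8 CPM in day 14 monocytes. In macrophages their sum was 4.31 to 15.1 CPM in controls, 17.7 to 31.2 at day 2, 5.74 to 28.2 at day 14 and 14.3 to 47.6 at day 28. The part of endothelial cells in the Procr result was not tested.

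Per length of exon, the order of the genes changed with the implant. In control macrophages F13a1 led with 484 CPM per kilobase, followed by Plaur with 22.6, and the other 7 genes were at 4.16 or less. At day 2, day 14 and day 28, Plaur led the macrophages with 401, 355 and 302 CPM per kilobase. In control monocytes F13a1 (273), Plaur (119) and F10 (34.7) led and the other 6 genes were at 2.22 CPM per kilobase or less. Thbs1 led the monocytes at day 2 (623) and day 28 (719.6), and Plaur at day 14 (857). The receptor was far above its ligand throughout: Plaur exceeded Plau per kilobase in all 8 groups, with 302 against 3.57 in day 28 macrophages. F3 stayed at 6.97 CPM per kilobase or less while its partners F7 and F10 reached 241 and 316.

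**Figure D3:**
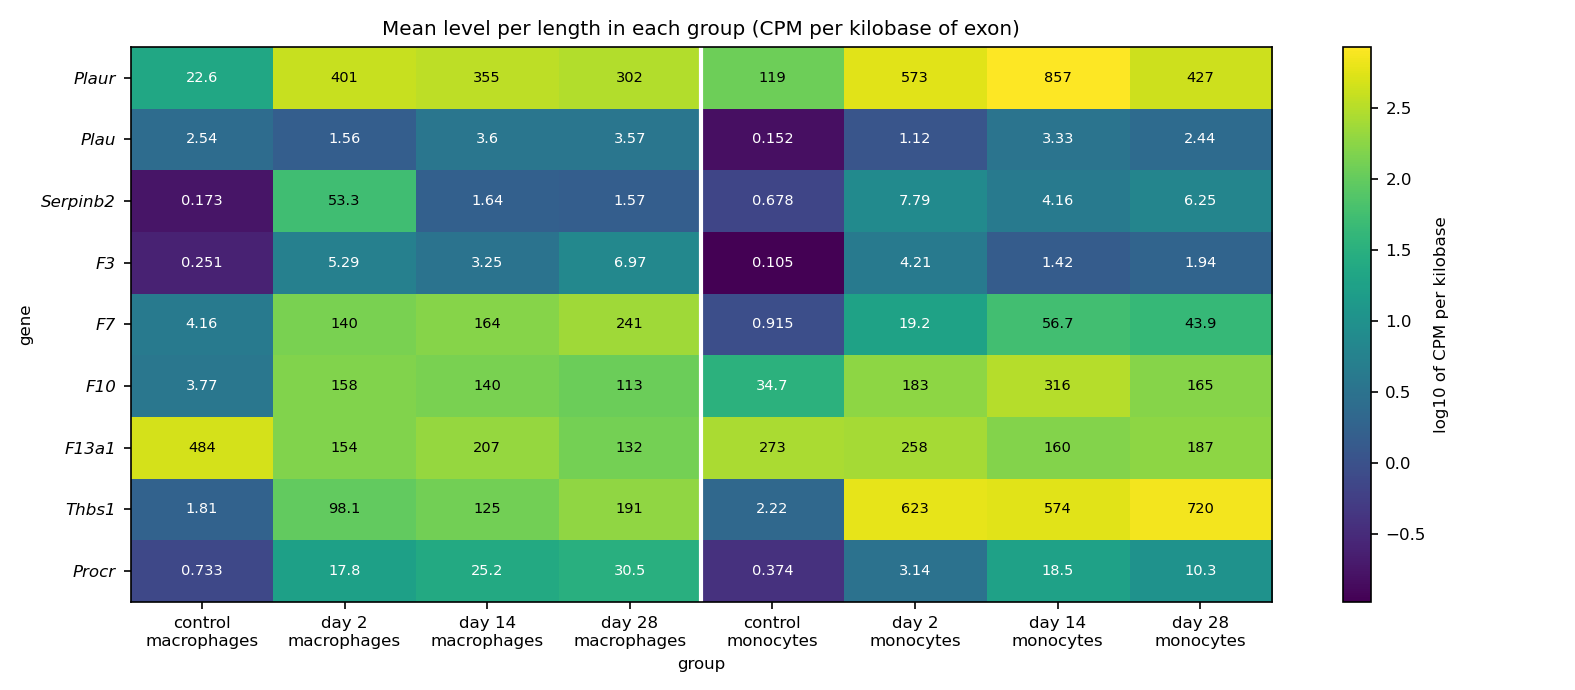
Mean level of each gene in each of the 8 groups, in CPM per kilobase of exon, with the value printed in each cell and colour on a log10 scale. F13a1 is the highest gene in both control groups; Plaur and Thbs1 are the highest in the implant groups.

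In macrophages 0 of 9 were called between day 2 and day 14, where 0.474% of all genes were called, and 0 of 9 between day 14 and day 28, against 0.00615%. By unadjusted p under 0.05, 2 of 9 (Plau and Serpinb2) passed from day 2 to day 14, where 10.6% of all genes did, and 0 from day 14 to day 28, where 8.73% did. DESeq2 called 1 (Serpinb2) and 0, and limma called 1 (Serpinb2) and 0. In monocytes 1 of 9 was called between day 2 and day 14, against 0.726% of all genes: Procr rose by 2.56 (SE 0.56, edgeR adjusted p = 0.0371) on the log2 scale. This call was lost without day 2 monocyte A, B or C (edgeR adjusted p 0.0681, 0.0921 and 0.219) or day 14 monocyte A or C (0.118 and 0.153). By unadjusted p under 0.05, 5 of 9 passed in this comparison, against 12.3% of all genes, DESeq2 called 5 and limma called 4, with Plaur, F7 and F10 added by both and Plau by DESeq2. From day 14 to day 28, 2 of 9 passed by unadjusted p, against 19.7% of all genes. Between day 14 and day 28 in monocytes 1 of 9 was called, against 0.720% of all genes: Plaur fell, -1.0 (SE 0.20, edgeR adjusted p = 0.0447). F10 stood just beyond the threshold at -0.94 (SE 0.23, edgeR adjusted p = 0.0512). Both genes had day 14 libraries that were all above the day 28 libraries. The Plaur call was lost in 12 of the 23 fits with 1 library left out, with edgeR adjusted p from 0.0509 to 0.168: without day 14 monocyte A, B or C, day 28 monocyte B or C, control monocyte A, day 2 monocyte B, day 14 macrophage A or B, or any day 2 macrophage library. The F10 value came under the threshold without day 28 macrophage A or C or day 2 monocyte A or C, adjusted p 0.0312 to 0.0456.

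The cell types differed without an implant. In controls 4 of the 9 genes were called between macrophages and monocytes, where 12.5% of all genes were called. Plau and F7 were higher in control macrophages, by 4.04 (SE 0.59, edgeR adjusted p = 6.59e-05) and 2.18 (SE 0.52, edgeR adjusted p = 0.00737) on the log2 scale, and the F7 call was lost without control macrophage B (edgeR adjusted p = 0.0923) and with limma (adjusted p = 0.0699). Plaur and F10 were lower in control macrophages, with log2 differences of -2.39 (SE 0.25, edgeR adjusted p = 8.86e-07) and -3.20 (SE 0.30, edgeR adjusted p = 2.07e-07). At day 2, 3 of 9 were called, against 3.42% of all genes: F7 and Procr were higher in macrophages and Thbs1 was higher in monocytes. The log2 difference was 2.87 (SE 0.49, edgeR adjusted p = 0.00196) for F7, 2.51 (SE 0.56, edgeR adjusted p = 0.0143) for Procr and -2.67 (SE 0.68, edgeR adjusted p = 0.0316) for Thbs1. Procr's call was lost without day 2 macrophage A (edgeR adjusted p 0.0653) or day 2 monocyte C (0.0770), and that of Thbs1 without day 2 macrophage A, B or C (0.0507, 0.151 and 0.106) or day 2 monocyte A or C (0.0952 and 0.0698). Serpinb2 did not pass at day 2, with 2.78 (SE 1.02, edgeR adjusted p = 0.166), although its macrophage libraries were all above its monocyte libraries.

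At day 14, 4 of 9 were called between the cell types, against 9.37% of all genes. F7 was higher in macrophages, 1.54 (SE 0.46, edgeR adjusted p = 0.0416), and Plaur, F10 and Thbs1 were higher in monocytes. Their log2 differences were -1.27 (SE 0.20, edgeR adjusted p = 9.98e-04) for Plaur, -1.17 (SE 0.23, edgeR adjusted p = 0.0047) for F10 and -2.20 (SE 0.66, edgeR adjusted p = 0.0418) for Thbs1. The F7 and Thbs1 calls were each lost without any of the 6 day 14 libraries, with edgeR adjusted p of 0.0531 to 0.132 for F7 and 0.0685 to 0.12 for Thbs1. They were also lost without day 2 monocyte B (F7, 0.0512), day 2 macrophage C (Thbs1, 0.0533) or control monocyte A (Thbs1, 0.0586). At day 28, 1 of 9 was called, against 2.52%: F7 was higher in macrophages, 2.46 (SE 0.48, edgeR adjusted p = 0.0107), a call lost without day 28 macrophage A (edgeR adjusted p 0.0719) or day 28 monocyte C (0.0609). F7 was thus the gene called at all 4 times.

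**Figure D4:**
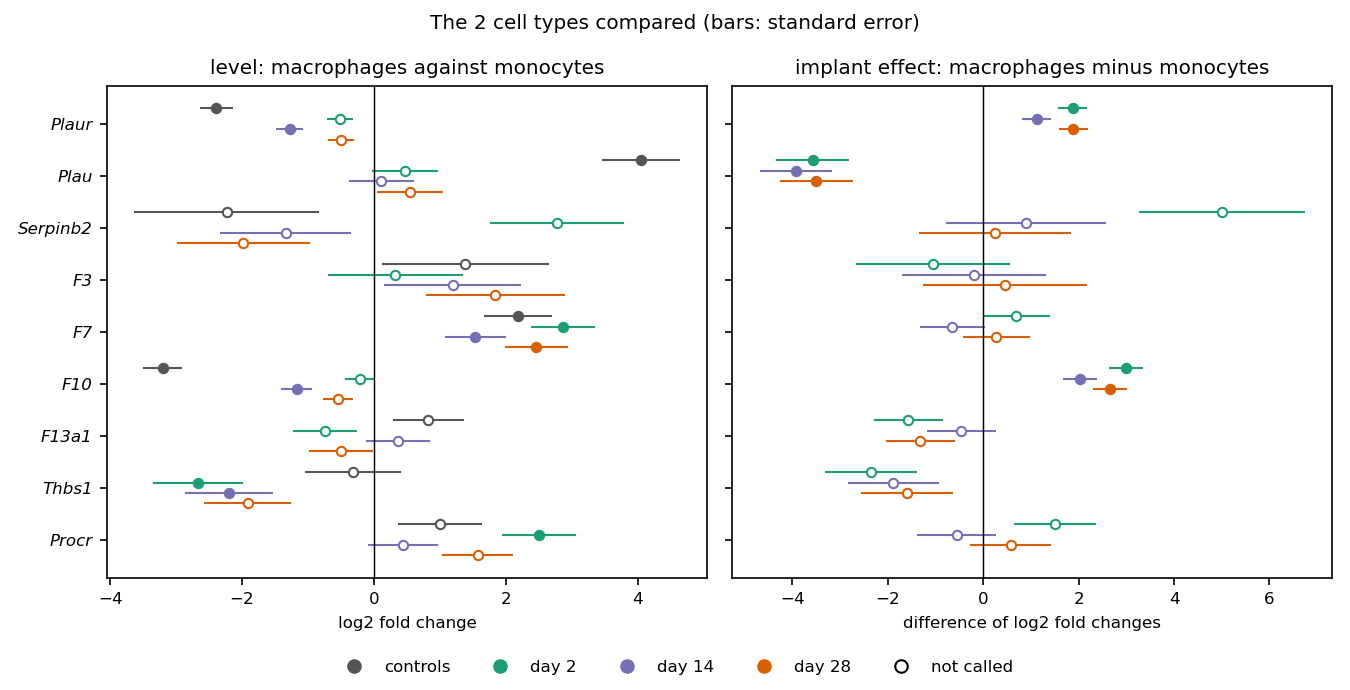
Left, log2 fold change of macrophages against monocytes in controls and at each day; right, difference between the implant effects of macrophages and monocytes (log2), with standard errors. Filled points were called: F7 lies right of 0 at each time on the left, and Plaur, Plau and F10 are the genes called on the right.

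The implant effect itself differed between the cell types for 3 of the 9 genes, tested as an interaction of implant and cell type. These 3 were called at day 2, against 3.78% of all genes, at day 14, against 7.55%, and at day 28, against 5.77%. F10 rose more in macrophages, by 2.99 (SE 0.36, edgeR adjusted p = 2.77e-05), 2.03 (SE 0.35, edgeR adjusted p = 0.00114) and 2.66 (SE 0.36, edgeR adjusted p = 7.67e-05) on the log2 scale at days 2, 14 and 28. Plaur also rose more in macrophages, by 1.88 (SE 0.31, edgeR adjusted p = 7.41e-04), 1.12 (SE 0.31, edgeR adjusted p = 0.0291) and 1.89 (SE 0.31, edgeR adjusted p = 5.65e-04). Plau rose more in monocytes, with interactions of -3.57 (SE 0.77, edgeR adjusted p = 0.00814), -3.93 (SE 0.76, edgeR adjusted p = 0.00295) and -3.5 (SE 0.76, edgeR adjusted p = 0.0064). For all 3 genes the control cell types differed in the opposite direction, so the same control libraries enter both results. The Plaur interaction at day 14 was lost without control macrophage B (edgeR adjusted p 0.0971) or day 14 macrophage A (0.0536). For Thbs1 the interaction at day 2 was -2.35 (SE 0.96, edgeR adjusted p = 0.228), and for Serpinb2 it was 5.0 (SE 1.74, edgeR adjusted p = 0.134), so neither was called in the reported fit, and a p beyond the threshold does not show that they respond alike. With no filter on low counts both were called (adjusted p 1.50e-05 for Thbs1 and 8.92e-10 for Serpinb2, by edgeR). Their log2 values in that fit, -2.31 and 5.03, were near those of the reported fit. Serpinb2 was also called when only the groups compared were fitted (edgeR adjusted p 0.0150). The F13a1 interaction at day 2, -1.57 (edgeR adjusted p = 0.299), was likewise called in these fits (edgeR adjusted p 0.0151 and 0.0347). What changed these calls was not tested.

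A wider list of 55 genes of coagulation, fibrinolysis and their receptors, apart from the 9, was described alongside them. It too was written with earlier results of these data known. Of these, 54 had a row in the table and 36 passed the filter on low counts. The 18 under the filter included F2, Plg, Fga, Fgb, Fgg, F11 and F12, whose proteins are known as plasma factors made in the liver. In macrophages 11 of the 36 (30.6%) were called at each day, 10 higher and 1 lower at day 2 and all higher at days 14 and 28, beside 17.2%, 8.21% and 10.6% of all genes. In monocytes 12 were called at day 2 (10 higher, 2 lower), 14 at day 14 (11 higher, 3 lower) and 10 at day 28, all higher. These are 33.3%, 38.9% and 27.8% of the 36, beside 27.0%, 37.7% and 18.2% of all genes, so the day 14 share is at that of all genes. The median log2 fold change of the 36 was 0.75, 0.88 and 1.10 in macrophages and 0.50, 1.51 and 0.81 in monocytes at days 2, 14 and 28, beside medians of all genes between -0.16 and 0.

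The genes named next are among those called with the smallest p in a comparison. Each is given at every day it was called in the cell type named. Eno1, a glycolytic enzyme also known as a plasminogen receptor, rose in macrophages by 3.03 (SE 0.26, edgeR adjusted p = 2.14e-07) at day 2, 2.62 at day 14 and 2.42 at day 28. Anxa2, which with S100a10 forms a cell surface receptor for plasminogen and tissue plasminogen activator, rose in macrophages by 2.90 (SE 0.30, edgeR adjusted p = 1.31e-06), 2.25 and 2.29. S100a10 rose by 2.76 at day 2 and 1.73 at day 14. Tgm2, a transglutaminase related to factor XIII, rose by 3.75 at day 2, 4.20 at day 14 and 4.72 at day 28. Itgb2, the shared chain of leukocyte integrins that bind fibrinogen, rose by 1.72, 2.03 and 2.67 at the same days.

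In monocytes Tgm2 rose by 5.46 (SE 0.66, edgeR adjusted p = 4.97e-06) at day 2, 5.55 at day 14 and 6.64 at day 28 on the log2 scale. Eno1 rose by 1.67, 2.15 and 1.70, and Anxa2 by 1.75, 1.96 and 1.35, at the same days. Plgrkt, a membrane plasminogen receptor, rose by 1.65 at day 2, 3.24 (SE 0.34, edgeR adjusted p = 5.03e-07) at day 14 and 2.06 at day 28. Cd36, a scavenger receptor that binds thrombospondin 1, rose by 3.14 at day 2, 4.82 at day 14 and 4.58 at day 28. Mcfd2, a cargo receptor for coagulation factors V and VIII, rose by 1.502 at day 2, 1.77 at day 14 and 1.59 at day 28.

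Between the cell types, 12 of the 36 were called in controls (7 higher in macrophages, 5 lower), 2 at day 2, both higher in macrophages, 4 at day 14 (2 in each direction) and 3 at day 28, all higher in macrophages. These are 33.3%, 5.56%, 11.1% and 8.33% of the 36, beside 12.5%, 3.42%, 9.37% and 2.52% of all genes. Cd36 was higher in macrophages at all 4 times, by 4.64, 3.26, 1.90 and 3.06. Itgb3, the chain of the vitronectin receptor, had 0 counts in both control macrophage libraries and a mean of 11.3 CPM in control monocytes, at least 184-fold lower when 3 counts are set over the macrophage controls. F5, factor V, was lower in control macrophages, with a log2 difference of -3.54 (SE 0.80, edgeR adjusted p = 0.00469), and so was Itgav, the partner of Itgb3, with -2.03. Itgb2 was higher in macrophages at day 28 (1.29). At day 14 Plgrkt (-1.69) and S100a10 (-1.37) were higher in monocytes, and Itgb1 (2.10), a common integrin chain, in macrophages. The interaction tests called 4, 6 and 5 of the 36 at days 2, 14 and 28, or 11.1%, 16.7% and 13.9%, beside 3.78%, 7.55% and 5.77% of all genes.

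Over all 23 libraries, the likeness of genes was measured as Pearson's r of log2 CPM, given as a description since the libraries share groups and depth. Plaur and F10 were each other's nearest gene among all genes compared, with r of 0.98. F7 and Procr had an r of 0.95 with each other, and Plau and Serpinb2 one of -0.06. F13a1 was negatively related to each of the other 8, from -0.60 with Procr to -0.10 with Serpinb2. The 3 genes nearest to Plaur were F10, Tarm1 and Tuba4a (0.98 to 0.97), and those nearest to F10 were Plaur, Tuba4a and Slpi (0.98 to 0.97). Thbs1 was nearest to Ptgs2 (0.98), Osm (0.97) and Tgm2 (0.96), F7 to Dpep2 (0.97) and Rhoc (0.96), and Procr to Anxa4 (0.97), Prdx1 (0.97) and Cd9 (0.96). Plau was nearest to Ms4a7, Cd72 and Cavin1 (all 0.93), F3 to Yif1b (0.91), Dnajc12 and Ran (both 0.90), and Serpinb2 to Cd300lf (0.85), Saa3 (0.85) and Rab33a (0.82). F13a1 had the lowest likeness to any gene, 0.79 with Pirb, followed by Mknk1 (0.76) and Zfp110 (0.74).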

How the data were processed

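The authors deposited whole-number counts of reads per gene in 23 libraries. Per the submitters' processing notes, bcl2fastq, STAR 2.4.1d, featureCounts (Subread 1.5.1) and GRCm38 were used; which annotation release and strand setting were used, and how multi-mapping reads were treated, is not given in the sources used. Per the labels' protocols, the SMART-Seq v4 and Nextera XT kits were used, neither of which marks strand, with single 75-base reads. Symbols and exon lengths came from GENCODE M21 (47310 of 47729 rows matched).

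The counts were fitted in R 4.3.3 with edgeR 4.0.16: filterByExpr by group, TMM scaling, robust quasi-likelihood F tests over 8 groups and 17 contrasts, Benjamini-Hochberg adjustment over 16260 genes, log2 fold changes with prior count 0.125 and SE as its size divided by √F. Printed CPM are per 1000000 counts in tested genes times the TMM factor. The fit was tested on simulated data. Library totals ran from 9303153 to 32994092 (median 24722229). p-values measure the spread between biological replicates, which were 2 or 3 a group; floors of 3 counts cover counting error only. All 9 genes are described in every group. Of 55 further genes, up to 4 called with the smallest adjusted p are named in each comparison. Those named for the implant are given at each day they were called in that cell type. For each of the 9, the 3 genes with the highest correlation are named, leaving out predicted genes and receptor segments. The genes and lists were chosen with earlier results of these data known. Alternatives were RLE size factors, no filter, limma 3.58.1 (voom with quality weights), DESeq2 1.42.0, only the groups compared, a replicate block, prior count 2, each library left out, and the 2 shallowest libraries left out. A few genes that these rules select are not reported here.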

Additional observations from a re-analysis of the deposited data

Results flagged for a closer look

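The effect of the implant differed between macrophages and monocytes by the interaction test for 3 of the 9 genes, at each of the 3 days. For F10 the macrophage effect exceeded the monocyte effect by 2.99, 2.03 and 2.66 on the log2 scale at days 2, 14 and 28. For Plaur it exceeded it by 1.88, 1.12 and 1.89. For Plau the difference was -3.57, -3.93 and -3.50, the effect being larger in monocytes. The edgeR adjusted p ran from 2.77e-05 to 0.0291 over these 9 tests. They share the 5 control libraries, in which Plaur and F10 were higher and Plau lower in monocytes. The neutrophil, fibroblast and macrophage markers also differed between the control cell types, as given above. In the interactions at days 2, 14 and 28, 7, 7 and 6 of 10 neutrophil markers were called, all higher. Of 10 fibroblast markers 7, 8 and 8 were called, and of 9 macrophage markers 7, 6 and 6, all lower. The shares of all genes called were 3.78%, 7.55% and 5.77%. The part of these markers in the results was not tested.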

How the results depend on the processing

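Of 93 results on single genes, 66 were called, and 49 of these kept direction and call in each of 30 alternatives, which were 23 fits with 1 library left out and 7 other fits; the other 17 were lost in at least 1. Changing the prior count to 2 changed no call. The only change of sign was that of F13a1 in monocytes at day 2, -0.081, which ran from -0.29 to 0.074 with 1 library left out and was 0.047 without day 2 monocyte B. Calls lost in other fits with all libraries, beyond those named above and under the block below, were F3 in macrophages at day 28 (adjusted p 0.0820), Procr in monocytes from day 2 to day 14 (0.0638), Plaur in monocytes from day 14 to day 28 (0.0988), F7 between the cell types at day 28 (0.130) and the Plaur interaction at day 14 (0.0605) with only the groups compared, Plaur in monocytes from day 14 to day 28 (0.0543) and the Plaur interaction at day 14 (0.0621) with no filter, and Serpinb2 in monocytes at day 28 (0.120) with limma. Of the 27 results that were not called, 19 were called in at least 1 alternative. Leaving out both shallow libraries, control macrophage A and day 2 macrophage C, was chosen after seeing the data. It left control macrophages with replicate B alone, so low depth and loss of replication cannot be told apart in that fit. The median of all genes moved by at most 0.17 there. RLE size factors moved that median by at most 0.11 in size (-0.11 in the day 14 interaction).

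The number of the 9 genes called changed as follows. In macrophages at day 14 against control, 5 became 8 with no filter. In macrophages from day 2 to day 14, 0 became 1 with RLE, no filter, only the groups compared, limma and DESeq2, and 0 to 1 with 1 library left out. In monocytes from day 2 to day 14, 1 became 2 with no filter, 0 with only the groups compared or without the shallow libraries, 4 with limma and 5 with DESeq2, and 0 to 1 with 1 library left out. In monocytes from day 14 to day 28, 1 became 2 with RLE, limma and DESeq2, 0 with no filter, only the groups compared, a replicate block or without the shallow libraries, and 0 to 2 with 1 library left out. Between the cell types at day 2, 3 became 5 with limma and 1 to 3 with 1 library left out; at day 14, 4 became 2 to 4 with 1 library left out; at day 28, 1 became 5 with no filter, 0 with only the groups compared, 2 with limma, 3 with DESeq2 and 0 to 1 with 1 library left out. The day 2 interaction count of 3 became 6 with no filter and 5 with only the groups compared. The cause was not tested.

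No pairing of the libraries by replicate letter was seen: same-letter deviations from the group means correlated between -0.066 and 0.11. With 2 or 3 libraries a group, this cannot show that the libraries were unpaired. With a replicate block, 6 calls were lost: F3 and F13a1 in macrophages at day 2 (adjusted p 0.0667 and 0.0670) and day 28 (0.0597 and 0.0601), Plaur in monocytes from day 14 to day 28 (0.0520) and F7 between the cell types at day 14 (0.0528). Numbers of all genes called over the alternatives moved by over 1.5 times in these comparisons, with the number in the reported fit in parentheses. In macrophages against control they ran from 560 to 4671 (2797) at day 2, 388 to 2437 (1335) at day 14 and 689 to 3100 (1717) at day 28. The others ran from 2724 to 7308 (4389) for monocytes at day 2 and 1932 to 4237 (2965) at day 28 against control, 29 to 685 (77) for macrophages at day 14 against day 2, 0 to 252 (1) for macrophages at day 28 against day 14, 0 to 741 (118) for monocytes at day 14 against day 2, 0 to 1523 (117) for monocytes at day 28 against day 14, 1088 to 3513 (2034) for macrophages against monocytes in controls, 269 to 1625 (556) for macrophages against monocytes at day 2, 635 to 2896 (1523) for macrophages against monocytes at day 14, 1 to 1323 (409) for macrophages against monocytes at day 28, and from 314 to 1473 (615) for the interaction at day 2, 508 to 2658 (1227) at day 14 and 492 to 1616 (939) at day 28.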
